A study of Mus musculus with 24 samples.

Results

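Salt given alone to IL-17 knockout mice is described here at the level of aortic RNA. The comparison sets 3 arrays from the labelled NaCl group against 3 arrays from the labelled control group, 6 of the 24 arrays in the series, chosen by group label with no measured value involved. All mice of the comparison were IL-17 knockouts of the C57BL/6 strain on normal chow. The salt group drank 1% NaCl, and neither group is labelled with β-aminopropionitrile (BAPN, an inhibitor of the enzymes that cross-link elastin and collagen) or angiotensin II (a pressor peptide), which the study infused for 3 days in other groups to injure the aorta. The controls are labelled vehicle. The labels do not say whether the salt group was also given vehicle by infusion, so an effect of salt and one of that infusion cannot be told apart if it was not. A matched pair of groups in wild-type C57BL/6 mice, 3 arrays of salt and 3 of control, is used where the knockout is compared with it. The wild-type arrays lay on another slide, scanned in another session, and each salt change was taken within its own slide. A difference between the genotypes in level, detection or size of change cannot be told apart from one between the slides. The labels do not say which IL-17 gene was deleted, how long salt was given before the infusion, or the mice's age or sex. Each group is stated to hold 3 biological replicates, so the spread measured is that between 3 aortic RNA samples.

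Salt in drinking water challenges the kidney and the vessel wall. Cells that meet raised sodium accumulate organic osmolytes through targets of the transcription factor NFAT5, kidney and adrenal gland retain or excrete sodium through the renin-angiotensin-aldosterone system, and the kinase SGK1 links the mineralocorticoid signal to sodium transporters. Raised sodium also favours T helper cells that make IL-17, a cytokine that acts on stromal cells to induce chemokines, acute-phase genes and neutrophil recruitment. In mice that lack IL-17 the comparison asks what salt does to the aorta before any injury and without that cytokine.

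No gene passed the test for salt alone in the knockout aorta. Of 23506 genes tested by limma, 0 were called higher and 0 lower at an adjusted p under 0.05 (0% of genes), and the lowest adjusted p was 0.9999. At an unadjusted p under 0.05 there were 714 genes (3.04%), 341 of them with a mean above the controls (1.45%) and 373 below (1.59%). All 3 salt arrays lay above all 3 controls for 1351 genes (5.75%) and below them for 1787 genes (7.6%). These shares are the background for every count of list members below.

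Most changes were small, and most were measured well enough to bound them. The median log2 change over all genes was -0.01, with a 5th percentile of -0.4 and a 95th percentile of 0.45, and the median standard error was 0.21. The 95% interval of the change stayed within 2-fold in either direction for 18765 genes (79.8%). A mean change of more than 2-fold was seen for 160 genes above (0.681%) and 117 below (0.498%) the controls. As a yardstick in the same model, BAPN and angiotensin II infusion without salt in the knockout was compared with the same 3 controls. It called 7203 genes (30.6%) and had a median absolute log2 change of 0.34, against 0.11 for salt alone. Infusion array 3 lay on another slide than these controls, and the part of the slide in the infusion values was not tested. Fitting the 6 arrays without the other groups gave 1593 genes at an unadjusted p under 0.05 (6.78%), and still 0 calls with a lowest adjusted p of 0.103.

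**Figure D1:**
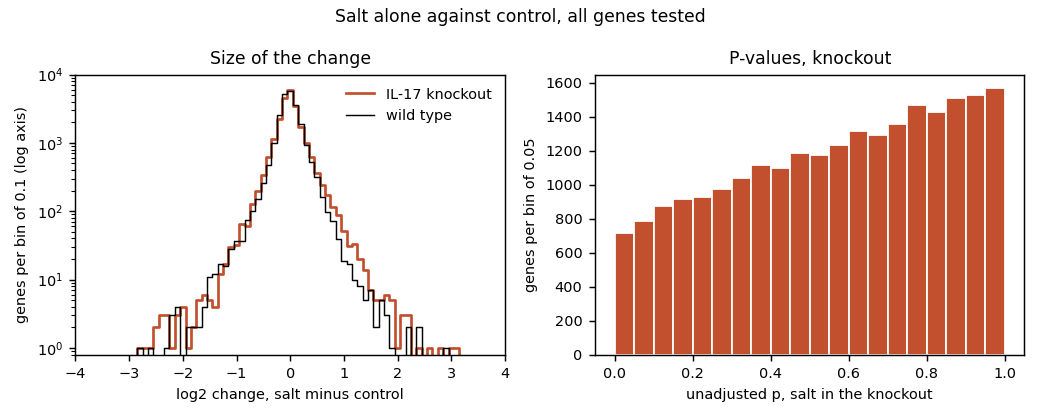
Left, the number of genes (log axis) at each log2 change of salt minus control in the knockout (red) and the wild type (black), in bins of 0.1. Right, the number of genes per 0.05 of unadjusted p for salt in the knockout. The bin nearest 0 holds 714 genes and the bin nearest 1 holds 1570, with no excess at small p. An even spread of p would put more genes in the bin nearest 0, so the absence of calls does not show that nothing changed.

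The smallest p in the comparison belonged to an array transcript without a gene symbol. Sequences of the 60-base probes of 4 such long intergenic transcripts are shown, because the array gives these transcripts a chromosome position and no gene symbol. They had the smallest p among transcripts that the array names by chromosome position, and were chosen after their values were seen. That ranking took the X chromosome and all autosomes but 1, and left out every other kind of database name. The probes lie on the plus strand of mouse build mm9, at chr5:124688165-124688224 (lincRNA 1), chr11:48608407-48608466 (lincRNA 2), chr5:123586499-123586558 (lincRNA 3) and chr2:157241868-157241927 (lincRNA 4), each inside a transcript that the array design annotates as intergenic. They are printed 5′ to 3′ in lower case, with no part marked.
lincRNA 1: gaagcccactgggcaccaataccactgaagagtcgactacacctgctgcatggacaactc
lincRNA 2: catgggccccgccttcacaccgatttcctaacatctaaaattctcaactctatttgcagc
lincRNA 3: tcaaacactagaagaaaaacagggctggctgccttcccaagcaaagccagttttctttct
lincRNA 4: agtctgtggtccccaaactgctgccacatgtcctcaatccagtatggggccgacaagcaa

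All levels below are log2 signals relative to the array's 75th percentile, so 0 is the level of the probe at that percentile, and they are compared within a gene only. LincRNA 1 read -6.04, -5.23 and -5.25 in the controls and -3.74, -1.05 and -3.45 under salt. It was well above background on 0 of 3 control and 3 of 3 salt arrays, so the groups did not overlap and the probe was at least 3.52-fold higher under salt (unadjusted p = 9.73e-05 by limma, adjusted p = 0.9999). A bound of this kind sets the mean of the brighter group against the dimmest signal that still counted as above background on the arrays of the other. It holds for the means of these arrays under the main background correction only. The spread between arrays is not counted in it, and the change under another correction can be smaller than the bound. In the wild type its log2 change was 0.04 ± 0.56 (SE). LincRNA 2 changed by -0.57 ± 0.14 (SE) and lincRNA 3 by -1.09 ± 0.28, both measured on all 6 arrays without overlap of the groups. LincRNA 4 was not well above background on any of the 6 arrays. Dim signals also depend on the background correction: under another one, normexp on the raw spot and background signals, 21 of the 44 knockout changes of genes named by the rule were smaller by more than 1.5 times and 0 larger. Of the 31 such genes well above background on all 6 arrays 8 shrank so, and of the other 13 all 13.

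Il17a and Il17f, the genes of the 2 best-known IL-17 cytokines, could not check the genotype. The Il17a probe was well above background on 0 of the 6 arrays, with readings from -7.12 to -5.6, and the Il17f probe likewise on 0 of 6, from -7.08 to -5.87. The tissue label was borne out by smooth muscle genes, the defining cells of the aortic wall. Acta2, smooth muscle actin, read between 8.99 and 9.41 in controls and between 9.01 and 9.16 under salt, and 22 of 24 contractile genes were well above background on all 6 arrays. All 18 endothelial genes were measured on all 6 arrays as well.

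The 6 arrays lay on 1 slide and were scanned together. The 3 controls and salt array 1 shared a row of the slide, and salt arrays 2 and 3 lay in the other row. The 75th percentile of signal was 383 to 510 intensity units in controls and 462 to 533 under salt, and 51.4% to 54.9% of spots were well above background. Control 1 stood apart: on the first principal component of the 6 arrays (29.9% of the variance) it scored -49.2, against -4.26 to 27.6 for the other 5, and 523 genes lay more than 1 log2 unit from their 6-array mean there, against 213 to 353 elsewhere. Salt array 2 had the lowest endothelial level, with a list median 0.61 below its 6-array mean, and the highest red cell and platelet level, 1.36 above it.

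The genes through which cells answer osmotic stress and move sodium showed little difference between the groups. Of the 37 listed, 33 were measured, and at an unadjusted p under 0.05 there were 0 above and 0 below. Their median log2 change was 0.03, against -0.01 over all genes. For 30 of 33 the 95% interval excluded a 2-fold change, against 79.8% of all genes. Sgk1 and Hspa1a were among those whose intervals reached further.

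Nfat5, the transcription factor of the osmotic response, read -0.74, -0.64 and -0.34 in controls and -0.41, -0.13 and -0.29 under salt, a log2 change of 0.30 ± 0.24 (SE) with overlapping groups. Akr1b3, aldose reductase, which makes sorbitol, changed by 0.03 with a 95% interval from -0.24 to 0.31. Slc5a3, the myo-inositol transporter, changed by 0.18 (-0.24 to 0.6). Slc6a6, the taurine transporter, read 2.4, 2.48 and 2.38 in controls and 2.63, 2.55 and 2.44 under salt, a change of 0.12 (-0.22 to 0.46) with overlapping groups. In the wild type Slc6a6 changed by 0.66 ± 0.16 (SE) with no overlap, and the difference between genotypes was -0.54 ± 0.23 (unadjusted p = 0.0295, not past the adjusted threshold). Hspa1a, the inducible heat shock protein that is also an osmotic stress gene, had the largest value of the list, 1.02 ± 0.77, and its salt arrays all lay above the controls.

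Among sodium transporters and their regulators, Nedd4l, the ubiquitin ligase that withdraws sodium channels from the membrane, had the smallest p of the list. It read 0.36, 0.37 and 0.26 in controls and 0.22, 0.14 and 0.03 under salt, so every salt array was lower, yet the change was only -0.20 ± 0.10 (unadjusted p = 0.0591). Slc4a7, a sodium bicarbonate cotransporter, changed by 0.25 ± 0.14. Sgk1 read 2.77, 3.41 and 2.83 in controls and 3.35, 3.09 and 3.88 under salt, a change of 0.44 ± 0.31 with overlapping groups. The kinase Wnk1, which governs chloride-coupled transporters, changed by -0.07 (-0.31 to 0.17).

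**Figure D2:**
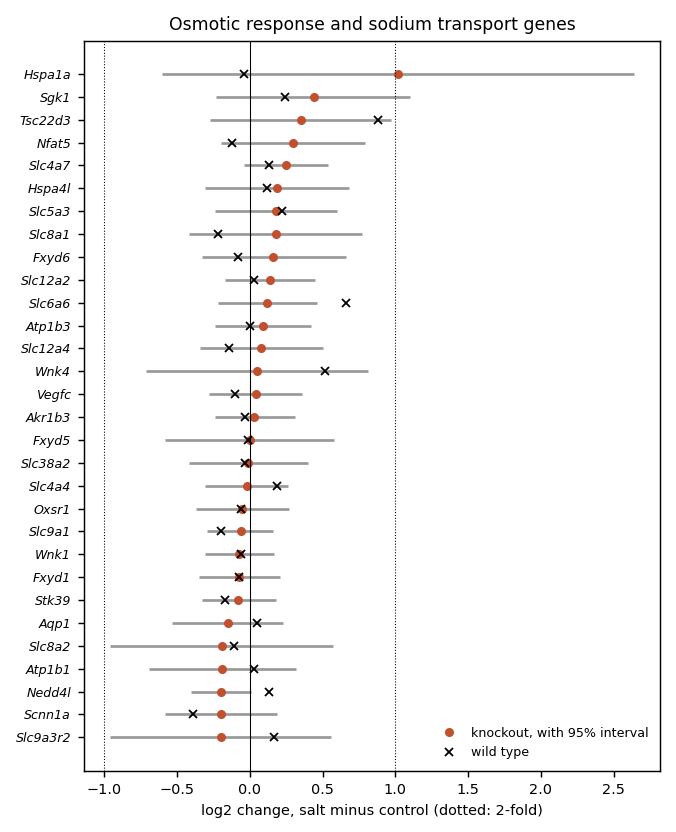
Log2 change of salt minus control for 30 of the osmotic response and sodium transport genes in the knockout (red points, with 95% intervals from limma) and the wild type (crosses); dotted lines mark 2-fold. In the knockout 28 of these 30 intervals stay within 2-fold, and Hspa1a at 1.02 has the widest.

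Of the renin-angiotensin and mineralocorticoid genes, 14 of 18 were measured, with a median change of 0.02, 1 member above and 0 below at an unadjusted p under 0.05. That member was Ren1, the protease renin that starts the cascade. Ren1 read -4.2, -3.71 and -3.91 in controls and -2.92, -3.11 and -2.59 under salt. The groups did not overlap, at a log2 change of 1.07 ± 0.36 (SE; unadjusted p = 0.00813, adjusted p = 0.9999), and the signal was dim, well above background on 2 of 3 controls; after normexp the change was 0.44. In the wild type the change was -0.46 ± 0.36, and the difference between genotypes of 1.53 ± 0.51 (unadjusted p = 0.00741) also missed the adjusted threshold.

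The other parts of the cascade stayed closer to 0. Ace, the enzyme that forms angiotensin II, changed by -0.28 ± 0.22, with all 3 salt arrays (2.16, 1.85 and 2.17) below the controls (2.42, 2.37 and 2.24). Agtr1a, the main angiotensin II receptor, changed by -0.28 ± 0.25 in the knockout and -0.67 ± 0.25 in the wild type, without overlap in either. Lnpep, an angiotensin-degrading aminopeptidase, changed by 0.28 ± 0.15. Nr3c2, the mineralocorticoid receptor, changed by -0.19, and Agt, the precursor, was not well above background on any of the 6 arrays.

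Glucocorticoid target genes had a median change of 0.33 over 20 members, 15 of them above 0 (46.2% of all genes were above 0), with 2 above and 0 below at an unadjusted p under 0.05. Angptl4, a secreted inhibitor of lipoprotein lipase that also answers PPARs and fasting, read 0.6, 1.02 and 0.41 in controls and 1.75, 2.28 and 3.17 under salt. Its change of 1.72 ± 0.45 (3.3-fold, unadjusted p = 0.00122, adjusted p = 0.9999) kept the groups apart, and the wild type gave -0.20 ± 0.45. Fkbp5, a chaperone partner of the glucocorticoid receptor, changed by 0.71 ± 0.31 with overlapping groups, and by 0.77 ± 0.31 in the wild type. Tsc22d3, the glucocorticoid-induced leucine zipper, changed by 0.35 in the knockout and 0.88 in the wild type. Salt array 3 carried the highest level of this list, 0.34 above the 6-array mean, and without it the median was 0.12.

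Markers of T cells and thymocytes formed the list farthest from 0. Of 15 listed, 12 were measured, all 12 lay below 0, and 6 were below at an unadjusted p under 0.05 with 0 above. The median was -1.84, against 0.10 in the wild type. It was -0.66 after normexp, and -1.17 with the 3 members that were not well above background in a group set at their bounds. Lck, the kinase of the T cell receptor, read 1.58, -0.01 and -1.21 in controls and -2.18, -1.92 and -1.67 under salt, a change of -2.04 ± 0.68 (SE; unadjusted p = 0.00727). Dntt, the terminal transferase of immature lymphocytes, read 1.17, -0.72 and -2.35 in controls and -3.87, -2.98 and -2.04 under salt, where the groups overlap.

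In both genes the range over the controls was wider than the change between the groups. Control 1 was the highest and control 3 the lowest of the controls, and control 3 lay within 0.5 log2 units of a salt array. Cd8a, part of the co-receptor of cytotoxic T cells, was well above background on 2 of 3 controls and 0 of 3 salt arrays, which makes it at least 2.06-fold lower under salt. Cd8b1, its partner, was at least 3.32-fold lower by the same reckoning. Tcf7, a transcription factor of developing T cells, changed by -2.10 ± 0.77 and Rag1, the recombinase of lymphocyte receptors, by -2.72 ± 1.37. Cd4, which macrophages can share, changed by -0.15 ± 0.18, and Cd3e by -0.48 ± 0.27. Summed over the list, the log2 signal ranged from 1.56 to 3.5 in controls and from 1.26 to 1.61 under salt. Without control 1 the list median was -1.15. In whole tissue, fewer cells of a type and less RNA per cell cannot be told apart, and the part of attached lymphoid tissue in these values was not tested.

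**Figure D3:**
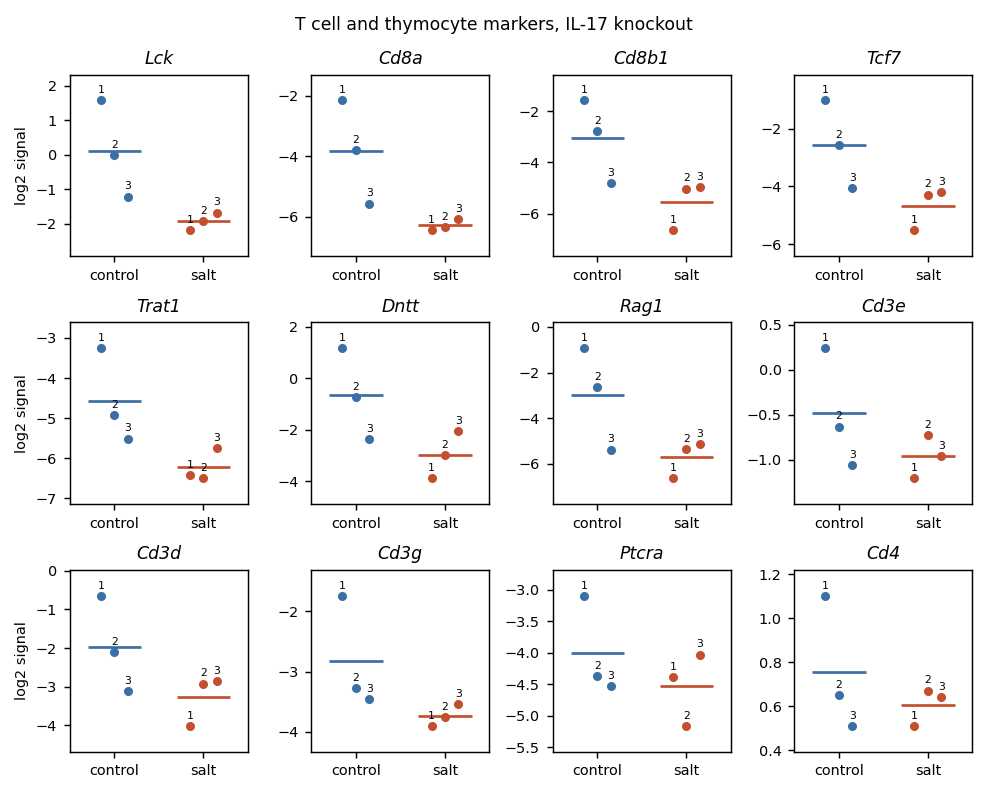
Log2 signal of the 12 measured T cell and thymocyte markers in the 3 control (blue) and 3 salt (red) knockout arrays, numbered by replicate, with group means as bars. Control 1 is the highest array in every panel, and control 3 lies near the salt arrays in most.

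Among the named genes below the controls, Myb, a transcription factor of blood cell progenitors, ran in the same order. It read -0.96, -2.74 and -4.4 in controls and -5.15, -5.16 and -5.02 under salt, where it was well above background on no array (at least 4.36-fold lower, unadjusted p = 0.00155). After normexp the log2 change of Myb was -0.92. Tbc1d10c, a GTPase regulator of lymphocytes, read -1.67, -2.31 and -2.69 in controls and -3.67, -2.93 and -3.16 under salt. Genes of the cell cycle had a median of -0.28, 26 of 31 below 0 with 0 at an unadjusted p under 0.05, and control 1 was again highest at 0.42 above the 6-array mean.

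Of 10 neutrophil markers measured, 3 had all salt arrays below the controls and 1 had all above. Those below were S100a9, S100a8 and Mpo, and the one above was Il1r2; Mpo and Il1r2 were not well above background on any of the 6 arrays. S100a9, a subunit of the calprotectin complex of neutrophils and a gene that IL-17 induces in stromal cells, read -2.27, -2.59 and -3.01 in controls and -5.25, -5.1 and -5.11 under salt. It was well above background on 3 of 3 controls and 0 of 3 salt arrays, at least 4.54-fold lower, yet its unadjusted p was 0.061 in the model, which takes one spread per gene from all 24 arrays. Fitted on the 6 arrays alone, its unadjusted p was 1.31e-05 and its adjusted p 0.103, and after normexp background correction the change was -0.92 instead of -2.53. S100a8, its partner, read -4.21, -4.22 and -4.15 against -5.31, -5.31 and -5.51, at least 1.6-fold lower. Csf3r, Ly6g and Elane, measured on all 6 arrays, changed by 0.16, 0.02 and -0.13. Over the list 0 reached an unadjusted p under 0.05, and the median was -0.14. The summed log2 signal was 6.31 to 6.48 in controls and 6.34 to 6.75 under salt. Nearly all of it came from Csf3r, at 6.27 to 6.45 and 6.31 to 6.73, so the sum does not describe the other members.

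Fat and heart muscle markers lay lower in part. Cox7a1, the muscle and brown fat form of a cytochrome c oxidase subunit, had the smallest p of any gene with a symbol. It read 1.4, 1.01 and 0.81 in controls and 0.19, 0.14 and 0.09 under salt, a change of -0.93 ± 0.20 (SE; unadjusted p = 0.00022, adjusted p = 0.9999). Ucp1, the uncoupling protein that defines brown fat, read 0.04, -0.73 and -0.21 in controls and -2.53, -2.63 and -3.05 under salt, a change of -2.44 ± 1.13 with a wide gap between the groups. Cox8b, another brown fat and heart subunit, read 2.13, 2.03 and 1.57 against 0.39, 0.53 and 0.92, a change of -1.30 ± 0.64.

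These 3 genes were the exception within their list. Of 12 brown adipocyte genes measured, 2 were below and 0 above at an unadjusted p under 0.05, and the median was -0.16. Cidea, Elovl6 and Dio2, which brown fat also expresses, changed by -0.15, -0.15 and 0.20. In the wild type Cox7a1, Ucp1 and Cox8b changed by -0.34, -1.27 and -0.76, with overlapping groups, and the difference between genotypes had an unadjusted p of 0.0524, 0.473 and 0.557. The heart genes Myh6, a cardiac myosin, and Mb, myoglobin, had the lowest values of 13 skeletal and heart muscle genes measured, at -1.46 ± 1.00 and -1.97 ± 1.16, and gave -1.48 and -2.16 in the wild type. Over those 13 the median was -0.20, with 4 above 0 and 0 at an unadjusted p under 0.05, and Casq1, a calcium store protein of skeletal muscle, had the highest value at 0.23. The median over 19 white adipocyte genes was -0.14, with Dgat2, an enzyme of triglyceride synthesis, at -0.72 ± 0.29 and Adipoq, adiponectin, at -0.47 ± 0.57. The summed signal of the brown list, most of it from Fabp3, Dio2 and Cidea, was 5.3 to 5.5 in controls and 5.23 to 5.29 under salt. The part of perivascular fat in these values was not tested.

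Cartilage and bone genes, which calcifying or root tissue of the aorta can express, split into 2 sets. Of 11 measured, 4 were above and 0 below at an unadjusted p under 0.05, and the median was 0.12. Chad, a cartilage matrix protein, read -3.16, -3.57 and -2.34 in controls and -0.77, -2.37 and -1.51 under salt, a change of 1.48 ± 0.50 with a slight overlap. Comp, a thrombospondin of cartilage and vessel wall, read 2.27, 3.33 and 3.38 in controls and 3.59, 3.87 and 3.63 under salt. The change was 0.70 ± 0.32, and control 1 was the lowest array by about 1 log2 unit. Col9a2, a chain of cartilage collagen, changed by 1.38 ± 0.45 and was well above background on only 1 of 3 controls. Salt array 2 read -1.82 for Col9a2, where the other 5 arrays lay between -5.21 and -4.26. Col2a1, the main cartilage collagen, was well above background on 0 of 3 controls and 2 of 3 salt arrays, at least 1.62-fold higher. Acan and Sox9, the proteoglycan and the transcription factor of cartilage, changed by 0.12 and -0.07. The summed log2 signal of the list was 6.38 to 6.51 in controls and 5.98 to 6.63 under salt, and did not separate the groups. Most of that sum came from Cytl1, the brightest member, at 6.17 to 6.41 in controls and 5.54 to 6.41 under salt. The sum therefore does not describe the dimmer genes above.

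**Figure D4:**
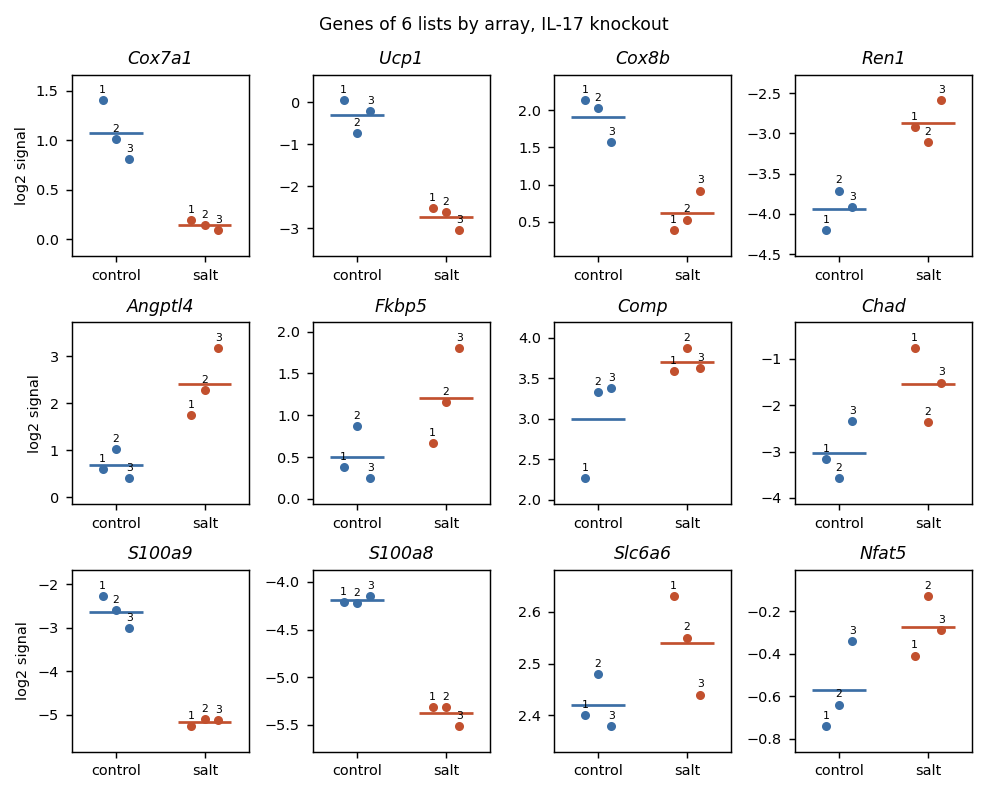
Log2 signal of 12 genes from 6 lists in the 3 control (blue) and 3 salt (red) knockout arrays, numbered by replicate, with group means as bars; each panel has its own scale. Cox7a1, Ucp1, Cox8b and S100a9 show salt arrays below all controls, Ren1 and Angptl4 above, and Slc6a6 overlaps.

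Clock genes gave little in the knockout beside their wild-type values. Of 19 clock genes measured, 0 were above and 1 below at an unadjusted p under 0.05 in the knockout, with a median of 0.12. In the wild type 4 of 19 reached that p, against 2.12% of all genes, with a median of 0.37. Arntl, the core activator BMAL1, read 1.55, 1.09 and 2.04 in knockout controls and 1.1, 1.76 and 1.22 under salt, a change of -0.20 ± 0.58. In the wild type Arntl changed by -2.05 ± 0.58 and its partners Npas2 and Clock by -1.25 ± 0.39 and -0.61 ± 0.19, each with all salt arrays below the controls (7.69% of all genes were so placed in the wild type, and 4.1% the other way). The differences between genotypes were 1.85 ± 0.82 for Arntl, 1.24 ± 0.56 for Npas2 and 0.72 ± 0.26 for Clock, with unadjusted p of 0.0361, 0.0377 and 0.0129, none past the adjusted threshold. The time of day of sampling is not given in the labels.

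Within the knockout, Nr1d1, Per1 and Bhlhe40 were among the clock genes of smallest p. Nr1d1, the repressor REV-ERBα, read 1.28, 1.65 and 0.81 against 1.89, 1.72 and 2.02, a change of 0.63 ± 0.39 without overlap. Per1 and Bhlhe40, both repressors of the loop, changed by 0.43 ± 0.35 and 0.20 ± 0.19.

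Genes downstream of IL-17, and the receptors that would carry its signal, gave no call. Of 20 IL-17 response genes measured, 0 were above and 0 below at an unadjusted p under 0.05, with a median of -0.05. After S100a9 the smallest p belonged to Steap4, a metalloreductase that IL-17 induces, at 0.58 ± 0.31, to Cebpd, a transcription factor of the acute phase, at 0.41 ± 0.25 with all salt arrays above the controls, and to Tnfaip3, the A20 inhibitor of NF-κB, at -0.26 ± 0.22. The chemokines Ccl2 and Cxcl1 changed by 0.11 ± 0.63 and -0.07 ± 0.78. Il17ra, the common receptor chain, changed by 1.22 ± 0.56, with control 1 at -6.23 and the other 5 arrays between -4.23 and -3.1. Il17rc, its partner chain, changed by -0.11 ± 0.10 and Traf3ip2, the adaptor ACT1, by -0.06 ± 0.16.

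The contractile and matrix genes that make up most of the wall had list medians close to that of all genes. The contractile list had a median of 0.05, and for 20 of 24 genes the interval excluded a 2-fold change, against 79.8% of all genes. Actg2, an actin of visceral and vascular smooth muscle, read 6.1, 6.34 and 6.16 in controls and 6.53, 6.52 and 6.53 under salt, a change of 0.33 ± 0.23. Ldb3, a Z-disc protein, changed by 0.34 ± 0.28 and Ppp1r12b, a regulatory subunit of myosin phosphatase, by 0.60 ± 0.49, both without overlap. Casq2, the calcium store protein, was not well above background on any of the 6 arrays. Collagens had a median of 0.05 with 25 of 31 intervals within 2-fold, and elastic fibre genes 0.01 with 25 of 26. The contractile and collagen counts are near the share over all genes. Eln, elastin, changed by 0.09 ± 0.23 in the knockout and -0.82 ± 0.23 in the wild type (unadjusted p of the difference 0.0108). All 34 oxidative phosphorylation genes and all 22 hypoxia and glycolysis genes had intervals within 2-fold.

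Heat shock genes lay above 0 in 17 of 18 cases with a median of 0.15, and 0 reached an unadjusted p under 0.05. Hsp90aa1, the inducible form of HSP90, changed by 0.33 ± 0.23 and Hsph1, a co-chaperone, by 0.51 ± 0.35, against -0.16 and -0.60 in the wild type. In the knockout salt array 3 was the highest for this list, 0.29 above the 6-array mean, and control 3 the lowest, 0.31 below it. Interferon-induced genes had a median of -0.16, with 20 of 26 below 0 and 0 at an unadjusted p under 0.05. Hmox1, haem oxygenase, changed by 1.26 ± 0.62, with control 1 at -2.77 and the other 5 arrays between 0.66 and 0.95.

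**Figure D5:**
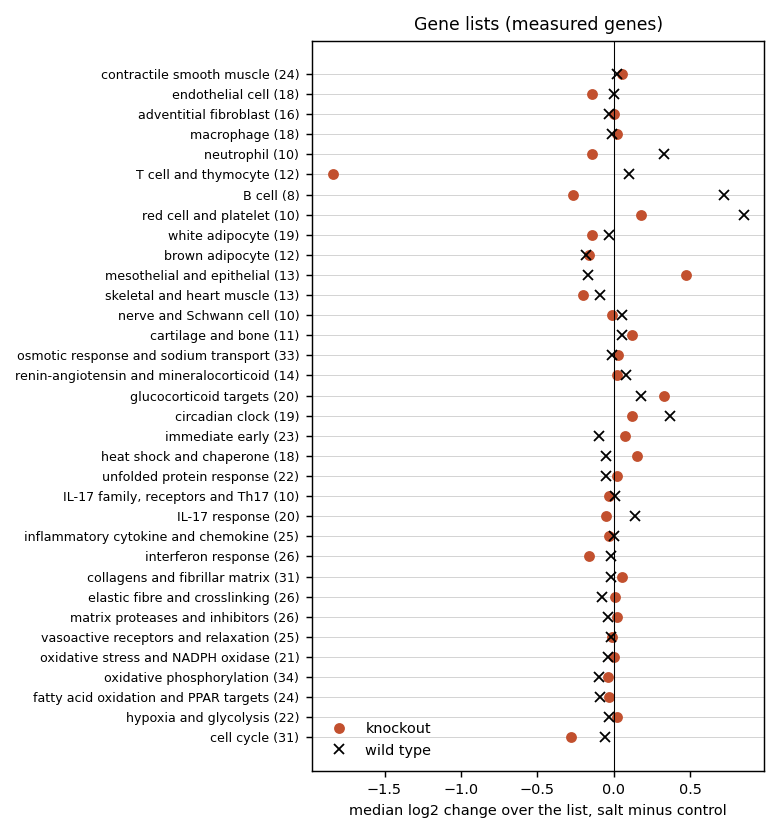
Median log2 change of salt minus control for 34 gene lists in the knockout (red points) and the wild type (crosses), with the number of measured genes in brackets. The T cell and thymocyte list at -1.84 (-0.66 after normexp) lies farthest from 0 in the knockout, and most other lists lie within 0.3.

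The remaining genes named by p had no call either. Above the controls without overlap were Fhad1 at 1.27 ± 0.33, Otud7b, a deubiquitinase, at 0.80 ± 0.21, and Pdlim5, a Z-disc adaptor of muscle. Pdlim5 read 1.9, 2.16 and 2 in controls and 2.69, 2.67 and 2.71 under salt, and its change of 0.67 ± 0.19 compares with -0.07 ± 0.19 in the wild type. Ccdc9, Syngr4, P2rx3 (an ATP-gated channel of sensory nerves) and Dgkg (a diacylglycerol kinase) changed by 0.62, 0.78, 0.83 and 1.07. After normexp these values were 0.3, 0.3, 0.43 and 0.73, and those of Fhad1 and Otud7b 0.66 and 0.35. Syngr4 was well above background on 2 of 3 controls. Trim67, well above background on 2 of 3 controls, changed by 1.46 ± 0.45, or 0.46 after normexp. Spopfm2, well above background on 0 of 3 controls and 2 of 3 salt arrays, was at least 1.63-fold higher, with a log2 change of 0.18 after normexp. Gabrb1, a GABA receptor subunit, was not well above background on any of the 6 arrays.

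Below the controls without overlap were Poln, a DNA polymerase, at -0.87 ± 0.19, Hlcs, which attaches biotin to carboxylases, at -0.60 ± 0.14, and Hid1 at -0.38 ± 0.10. Hlcs read -1.09, -1.26 and -1.19 in controls and -1.72, -1.71 and -1.9 under salt. Ybey, a mitochondrial ribonuclease, and Parp11, a mono-ADP-ribosyltransferase, changed by -0.50 ± 0.13 and -1.02 ± 0.25. Parp11 was well above background on 3 of 3 controls and only 1 of 3 salt arrays. Mup17 belongs to the major urinary protein family, whose near-identical members a probe may not separate, and was at least 2.11-fold lower. Clec2i, a lectin-like ligand, was at least 1.59-fold lower. Scn1a, a sodium channel, was well above background on only 1 of the 6 arrays, and there through another probe than the one read. After normexp the log2 changes of Poln, Parp11, Mup17 and Clec2i were -0.4, -0.3, -0.66 and -0.25.

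Whether salt acted differently in the 2 genotypes was tested directly. The difference of the salt effect called 0 of 23506 genes (0%), with 475 at an unadjusted p under 0.05 (2.02%) and a lowest adjusted p of 1. Salt in the wild type also called 0 genes, with 499 at an unadjusted p under 0.05 (2.12%) and a lowest adjusted p of 0.0883. So no gene is shown to respond to salt in one genotype and not in the other.

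Of the genes of smallest p for the difference, Mthfd1l, a mitochondrial folate enzyme, changed by -0.17 ± 0.19 in the knockout and 1.11 ± 0.19 in the wild type, and was well measured on all 6 knockout arrays (unadjusted p = 0.000129). Mcu, the mitochondrial calcium channel, changed by 0.30 in the knockout and -0.98 in the wild type. Its wild-type controls read -2.84, -1.24 and -2.87, and without the second the difference between genotypes was 0.74 instead of 1.28; after normexp it was 0.58. Exo1, a DNA exonuclease, was at least 2.15-fold lower under salt in the knockout, and in the wild type it was well above background on 0 of 3 controls and 2 of 3 salt arrays. Gmnc, a regulator of multiciliated cells, was well above background on 1 of 3 controls and 0 of 3 salt arrays in the knockout, at least 1.25-fold lower, and on 0 of 3 and 3 of 3 in the wild type. Cdc7, a replication kinase, stayed dim in all 4 groups, well above background on 0 of 3 arrays in each.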

How the data were processed

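Total RNA was labelled with Cy3 and hybridised to one-colour Agilent arrays; the labels' protocols speak of cells, the sample labels of aorta. The deposited scanner values are intensity on a linear scale, background-subtracted per the file headers, which name Feature Extraction 10.7.1.1 (the submitters' processing notes name 9.5.1.1). Signals were taken as log2 minus each array's 75th percentile. Control and outlier spots were left out, spots of a probe averaged, and 33379 probes kept that were well above background on all 3 arrays of a group and had values on at least 2 arrays of each. The brightest probe stood for a gene: 23506 genes, 8699 under a database name only. A gene counted as well above background on an array where any of its probes was, which need not be the probe read. Probes were named by accession through RefSeq records of GRCm38.p6, used for names only. No saturated spots occurred.

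Group means over all 24 arrays were fitted by limma 3.58.1 in R 4.3.3 (lmFit, eBayes), with Benjamini-Hochberg adjustment at 0.05; p and intervals come from that fit unless another is named. It was tested on simulated data. The authors' processed values, deposited as intensity and quantile-normalised (median 30.982 in each column), served as an alternative. Named genes were the 12 of smallest p in each direction, 4 members of smallest p of 5 lists, and 5 of each sign for the genotype difference, leaving out database names and a few genes that are counted but not reported by name here; other members of a list are named to describe it and were chosen after their values were seen. Members and lists were chosen with earlier results of these data known. Titles and source names number the wild-type salt arrays differently, and the source names' numbers were used. Same-numbered knockout arrays did not deviate together (correlations -0.01, 0.02 and -0.03), so numbers were not taken as pairs. The number of arrays limits the precision. Files were read with the data.table package (version 1.17.8) and plots drawn in Python 3.11.15 with matplotlib 3.10.9.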

Additional observations from a re-analysis of the deposited data

Results flagged for a closer look

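For 6 of the 53 genes named by the rule every salt array moved one way against the controls in the knockout and the opposite way in the wild type. Of these, 5 were named for their small p in this same difference, and over all 23506 genes 169 (0.719%) were so placed. The difference between the genotypes was tested for each and did not pass the adjusted threshold. Hsd17b1, a steroid dehydrogenase, had readings that differed by -3.38 ± 0.68 (SE; unadjusted p = 8.85e-05 by limma), and by -0.49 ± 0.20 after normexp. It was well above background on 2 of 3 controls and 0 of 3 salt arrays in the knockout, at least 1.41-fold lower, and on 0 of 3 and 2 of 3 in the wild type. Macc1, a transcriptional regulator, differed by 2.2 ± 0.73 (0.80 and -1.41), and by 0.66 after normexp; it was well above background on 1 of 3 knockout controls. Ifnk, an interferon, and Nox1, an NADPH oxidase, were not well above background on any of the 6 knockout arrays; their readings differed by -1.61 ± 0.42 and 1.24 ± 0.40, and by -0.29 and 0.26 after normexp. Meaf6, a subunit of histone acetyltransferase complexes, was measured on all 6 and differed by 0.44 ± 0.13 (0.22 and -0.22), and Fbxo24, an F-box protein, by 0.82 ± 0.27 (0.62 and -0.20).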

How the results depend on the processing

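The count of 0 genes called for salt in the knockout held under quantile normalisation, normexp, the values processed by the authors, testing dim probes as well, a filter on all 24 arrays, averaging the probes of each gene, a trended prior, the slide as a fixed or random block, and a fit of the compared groups alone. With the row within the slide as a fixed block it was 24; that contrast rests on salt array 1, the one salt array in the controls' row, and in all 24 genes salt array 1 lay outside the other 5. With the replicate block the counts were 0 for the knockout, 0 for the wild type and 0 for the difference, though the numbers pair nothing here, so no call changed. Leaving out an array in turn, with the probe filter repeated, gave 0 to 21 in the knockout, 0 to 5 in the wild type and 0 to 11 for the difference. The 21 came without salt array 1, and 17 of them were not among the genes tested with all arrays. Keeping the tested genes as they were, an alternative chosen after those counts were seen, gave 0 to 2, 0 to 1 and 0 to 0; Gabrb1 was the 1 gene called without salt array 2 (log2 change 1.74, adjusted p = 0.0386). For the wild type the count was 1 with the filter on all 24 arrays, 1 with a trended prior, 2 and 3 with the slide as a fixed and random block, and 1 with the row block; for the difference it was 3 with the row block. Genes at an unadjusted p under 0.05 in the knockout numbered 429 under normexp, 1155 without a filter, 440 with the filter on all 24 arrays and 1593 with the compared groups alone; leaving out an array gave 419 to 885, or 418 to 883 with the tested genes kept, lowest without control 1. No named gene changed direction in 515 values under other settings or 264 under each way of leaving out an array. These genes were chosen by p in the same arrays, so a kept direction was likely beforehand and is no support for them. Sizes did change: under normexp 29 of 54 named values, knockout changes and genotype differences together, were smaller by more than 1.5 times (up to 9.77 times) and 0 larger, among them all 20 of genes not well above background on all 6 knockout arrays. The T cell and thymocyte median was -0.66 under normexp. Signal over background limits the dim genes.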
